A study of Mus musculus with 9 samples.

Results

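The Hsp70 and Hsp110 chaperone family was followed at the RNA level in mouse bone marrow-derived macrophages, cells grown in culture from marrow progenitors of C57BL/6 mice aged 8 weeks. Its 9 members are the genes Hspa1a, Hspa1b, Hspa2, Hspa4, Hspa4l, Hspa8, Hspa13, Hspa14 and Hsph1, found by symbol among 18049 genes of 1 expression table. All 9 were among the 11309 genes with enough signal to test. Cells were kept in RPMI medium and were exposed for 6 h to 1 µM 15d-PGJ2-PC (3 libraries), to 1 µM 15d-PGJ2 (3 libraries) or to medium alone, the control (3 libraries). 15d-PGJ2 is a cyclopentenone prostaglandin, an electrophilic lipid that can react with thiol groups of proteins. The labels do not spell out what PC stands for. Nor do they say whether the replicates of a group were separate cultures or separate mice. The spread behind each p-value is that between libraries and could be no more than technical.

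Hsp70 proteins bind short hydrophobic stretches of unfolded polypeptides and release them in a cycle driven by ATP. J-domain proteins bring clients and start the hydrolysis of ATP, and nucleotide exchange factors, to which the Hsp110 proteins belong, let ADP go so that the client is released. The stress-inducible members of the family are textbook targets of the heat shock factor Hsf1, which binds repeats of the sequence GAA in alternating orientation (heat shock elements) and is held back by Hsp70 in unstressed cells.

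Expression values are FPKM, fragment numbers scaled to transcript length and library depth, and on this scale levels were set side by side between genes. Such comparisons, and shares of summed FPKM, depend on how reads were counted, and the counting tool was not given. Steps in the low values put the depth at about 5.33 to 5.49 M reads per library. Libraries of 1 group correlated at 0.987 to 0.989 across tested genes and libraries of different groups at 0.944 to 0.979 (Pearson, log2 scale; genes are not independent replicates). Log2 fold changes are on the scale of log2(FPKM + 1), which understates the change of genes near 1 FPKM, and carry a standard error (SE). Adjusted p-values are from limma with Benjamini-Hochberg adjustment over the 11309 genes, and a gene counts as higher or lower where its adjusted p is under 0.05. In bulk RNA, fewer cells of a type and less RNA per cell cannot be told apart.

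The macrophage label was checked against 14 macrophage markers (Csf1r, Adgre1, Cd68, Lyz2 and others), all of them listed above 0 in every group. Their summed level was 8555 to 8805 FPKM with 15d-PGJ2-PC, 7148 to 7629 FPKM with 15d-PGJ2 and 9678 to 10068 FPKM in control libraries. Against control, 10 of 14 were lower with 15d-PGJ2-PC and 13 of 14 with 15d-PGJ2, Trem2 being the exception there. Low levels of other cell types' markers moved with treatment too. The 10 stromal markers summed to 8.39 to 8.86 FPKM with 15d-PGJ2-PC, 8.88 to 11.4 FPKM with 15d-PGJ2 and 38.0 to 44.7 FPKM in control libraries, and all 6 that could be tested were lower with either compound. The 10 skin keratinocyte markers summed to 1.83 to 3.71, 2.32 to 3.85 and 28.9 to 33.7 FPKM in the same order of groups, with Krt5, Krt14, Krt1, Krt15, Krt71, Lor and Krtdap at 0 in all treated libraries and 7 of 8 tested lower with either compound. The 5 erythroid genes summed to 0 to 0.91, 0.33 to 0.76 and 23.6 to 31.8 FPKM in that order, with Hba-a2 at 0 in all treated and in 2 of 3 control libraries and 3 of 3 tested lower with either compound. The 8 neutrophil genes summed to 20.3 to 26.2, 13.5 to 16.6 and 28.0 to 31.6 FPKM in that order. Of 4 tested, 1 was higher and 1 lower with 15d-PGJ2-PC, and 1 was higher and 3 lower with 15d-PGJ2. In the opposite direction, 5 RNAs that lack a poly(A) tail, a sign of RNA selection and quality, summed to 165.6 to 182.7 FPKM with 15d-PGJ2-PC, 454.5 to 471.1 FPKM with 15d-PGJ2 and 80.5 to 114.8 FPKM in control libraries. Of the 2 of these that could be tested, 1 was higher with 15d-PGJ2-PC and both were higher with 15d-PGJ2, against control. Testing required 1 FPKM in 3 libraries. Krt5, Krt14, Krt1, Krt71, Lor, Krtdap, Hba-a1, Hbb-bs, Hbb-bt, Col3a1, Dcn and Postn reached this level only in control libraries, and Mpo only in treated ones. The direction of any call of these genes against control was therefore fixed in advance. Of all tested genes, 14.1% were lower with 15d-PGJ2-PC and 25% with 15d-PGJ2. The part of these marker and RNA shifts in the chaperone results was not tested. With every marker list but the macrophage one taken out of the fit, an alternative added after the data were seen, the calls of the 9 members were unchanged in number. The log2 fold change of each member rests on its own FPKM alone, so this alternative could not take any part of these shifts out of it.

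Most of the family was higher after either compound. With 15d-PGJ2-PC, 6 of 9 members were higher than in control libraries and 0 were lower, where 13.8% of all tested genes were higher and 14.1% lower. With 15d-PGJ2, 7 of 9 members were higher than in control libraries and 0 were lower, where 22.2% of all tested genes were higher and 25% lower. Compared directly at the same dose and time, 5 of 9 members were lower with 15d-PGJ2-PC than with 15d-PGJ2 and 0 were higher, beside 8.3% lower and 12.3% higher among all tested genes. The median log2 fold change of the 9 members was 0.98 for 15d-PGJ2-PC against control, 1.84 for 15d-PGJ2 against control and -0.74 for 15d-PGJ2-PC against 15d-PGJ2. Over all tested genes the median log2 fold changes were -0.0038, -0.016 and 0.016 in these comparisons. The libraries of the 2 groups did not overlap for 7 of 9 members with 15d-PGJ2-PC against control (41.8% of all tested genes), for 7 of 9 with 15d-PGJ2 against control (55.1%) and for 6 of 9 with 15d-PGJ2-PC against 15d-PGJ2 (37.3%). The comparisons with control share the same control libraries, so they are not independent of each other.

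**Figure D1:**
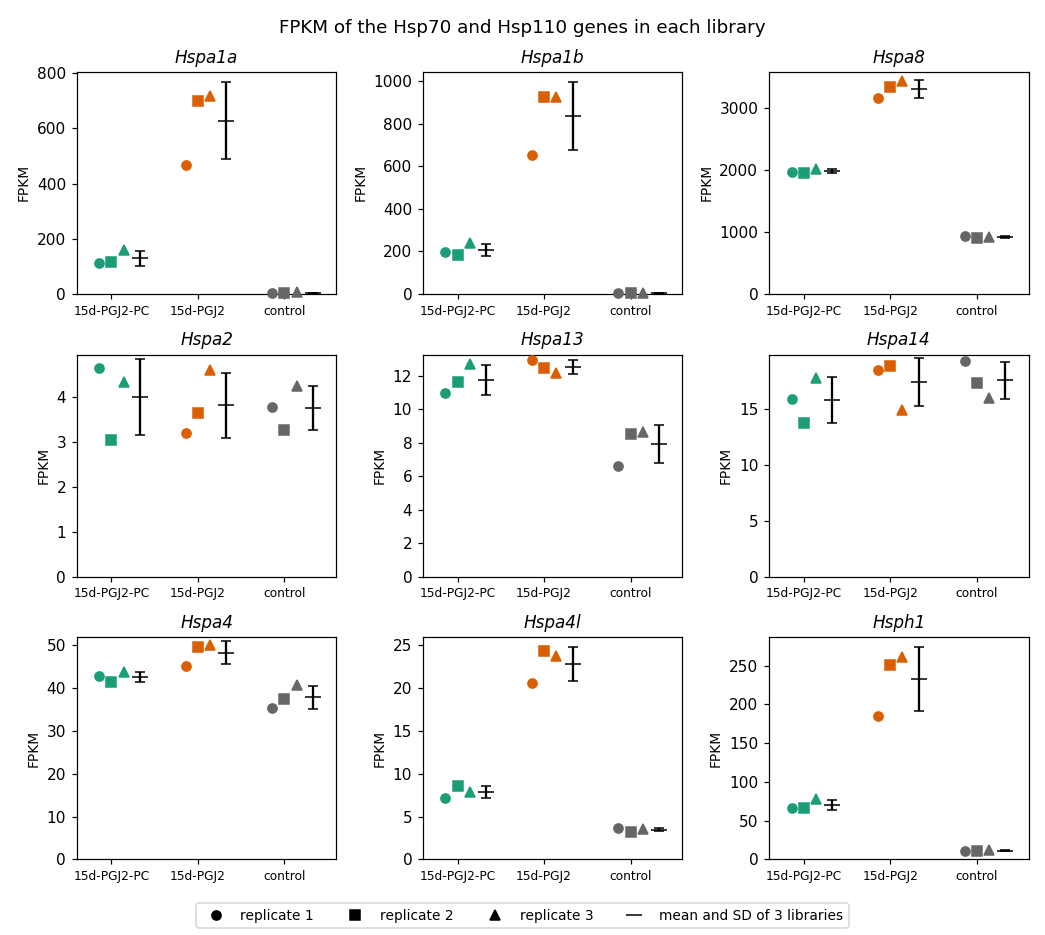
FPKM (y axis, linear, from 0) of each of the 9 members in each library, with groups along the x axis; the marker shape gives the replicate number and the bar beside each group its mean and SD over 3 libraries. For Hspa1a, Hspa1b, Hspa8, Hspa4l and Hsph1 the 3 groups do not overlap, with 15d-PGJ2 libraries highest and control libraries lowest, whereas for Hspa2 and Hspa14 all groups overlap.

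The stress-inducible pair Hspa1a and Hspa1b, which encode nearly identical forms of the major inducible Hsp70, moved most. Hspa1b (Entrez 15511, chr17:34956429-34959238 of GRCm38, minus strand, 1 exon) stood at 195.3, 184.3 and 240.9 FPKM with 15d-PGJ2-PC, at 654.0, 927.6 and 928.8 FPKM with 15d-PGJ2, and at 5.33, 4.32 and 3.73 FPKM in control libraries. Every treated library lay far above every control library, and every 15d-PGJ2 library far above every 15d-PGJ2-PC library. The mean was 207 ± 30.0 FPKM with 15d-PGJ2-PC, 837 ± 158 FPKM with 15d-PGJ2 and 4.46 ± 0.81 FPKM in control libraries (SD, n = 3 each), which makes 46.4-fold and 188-fold the control mean. The log2 fold change against control was 5.25 for 15d-PGJ2-PC (SE 0.15, adjusted p = 9.39e-09) and 7.25 for 15d-PGJ2, and 15d-PGJ2-PC was lower than 15d-PGJ2 by a log2 fold change of -2.0 (95% interval -2.34 to -1.67, adjusted p = 1.17e-05). Ranked by log2 fold change among the 11309 tested genes, Hspa1b came 1st against control with either compound.

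Hspa1a (Entrez 193740, chr17:34969359-34972156, minus strand, 1 exon) lies next to Hspa1b and showed the same order of groups. It stood at 112.4, 115.6 and 161.3 FPKM with 15d-PGJ2-PC, at 466.6, 699.7 and 716.2 FPKM with 15d-PGJ2, and at 3.26, 3.71 and 5.54 FPKM in control libraries. The 3 groups again did not overlap, and replicate 1 of 15d-PGJ2 was the low one of its group for both genes. The mean was 129.8 ± 27.3 FPKM with 15d-PGJ2-PC, 627 ± 140 FPKM with 15d-PGJ2 and 4.17 ± 1.21 FPKM in control libraries. Hspa1a rose with 15d-PGJ2-PC by a log2 fold change of 4.67 (SE 0.20, adjusted p = 1.03e-07) and with 15d-PGJ2 by 6.92 (SE 0.20, adjusted p = 2.15e-09), and the difference between the compounds was -2.26 (95% interval -2.71 to -1.81, adjusted p = 3.05e-05). Its rank was 2 in both comparisons with control. In control libraries these values rest on about 67 reads per gene and library.

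The split of reads between the 2 copies is uncertain, because their coding sequences differ at 8 of 1923 aligned bases (99.6% identical) and 95.8% of the identical bases lie in unbroken runs of at least 100 bases. A gene on the opposite strand also overlaps 2225 bases of Hspa1a, and whether counting used strand is not stated. Hspa1b made up 59.9 to 63.5% of the pair's FPKM with 15d-PGJ2-PC, 56.5 to 58.4% with 15d-PGJ2 and 40.2 to 62.0% in control libraries. Summed to 1 gene, the pair changed by log2 fold changes of 5.12 for 15d-PGJ2-PC against control (adjusted p = 9.32e-09), 7.23 for 15d-PGJ2 against control (adjusted p = 1.80e-10) and -2.11 for 15d-PGJ2-PC against 15d-PGJ2 (95% interval -2.44 to -1.78, adjusted p = 7.28e-06). Whether reads matching both copies were counted is not given, and summing cannot restore reads left out. The pair's level and its share of the family are uncertain to that extent.

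The bases before the start of both genes are shown because these 2 members moved together and nearly share them. Each window holds the 250 bases before the gene's start, from RefSeq on GRCm38.p6, read 5′ to 3′ on the minus strand, at chr17:34972157-34972406 for Hspa1a and chr17:34959239-34959488 for Hspa1b. Capitals mark a match to the heat shock element core GAANNTTC.
Hspa1a: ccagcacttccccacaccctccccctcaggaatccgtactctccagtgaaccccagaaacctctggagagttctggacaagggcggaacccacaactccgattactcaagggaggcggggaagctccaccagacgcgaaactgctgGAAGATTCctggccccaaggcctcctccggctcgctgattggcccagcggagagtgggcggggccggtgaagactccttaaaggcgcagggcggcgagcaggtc
Hspa1b: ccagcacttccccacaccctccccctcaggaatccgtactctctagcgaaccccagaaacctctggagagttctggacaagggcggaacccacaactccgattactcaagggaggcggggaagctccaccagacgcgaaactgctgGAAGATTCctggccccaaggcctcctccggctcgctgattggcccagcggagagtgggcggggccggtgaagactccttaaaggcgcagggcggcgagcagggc

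The windows are the same at 247 of 250 bases (98.8%). The 3 differences are T44C, C47T and G249T, with the base of Hspa1b first, then the position counted from 1 at the 5′ end of the window, then the base of Hspa1a. None of them touches the marked core, which lies at -104 to -97 relative to the start in both genes. Such windows were matched by symbol for 7 of the 9 members, the others being Hspa8 and Hspa13. Of these 7, the core GAANNTTC or its other form TTCNNGAA (each reads the same on both strands) was found for Hspa1a, Hspa1b and Hsph1, which are the members with the 3 highest log2 fold changes against control. It was not found in the windows of Hspa2, Hspa4, Hspa4l and Hspa14. The 30-base stretches around the 3 matches show them side by side, at chr17:34972242-34972271, chr17:34959324-34959353 and chr5:149636351-149636380, all on the minus strand.
Hspa1a: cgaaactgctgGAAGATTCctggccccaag
Hspa1b: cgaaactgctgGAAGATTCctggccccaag
Hsph1: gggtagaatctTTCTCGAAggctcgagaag

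The core GAANNTTC occurs in 6.69% of 32851 RefSeq windows of the same length and TTCNNGAA in 7.17%, with one or the other in 12.8%. A looser form, GAANNNNNNNGAA on either strand, is in 16.0% of windows and was found for Hspa1a and Hspa1b, where it overlaps the core, for Hspa14 and 2 times for Hsph1, where 1 of the matches overlaps the core. The antioxidant response core TGACNNNGC, the kind of sequence that Nrf2 binds, is in 10.2% of windows and was found 2 times for Hsph1 and for none of the other 6 members with a window. The NF-Y box CCAAT (33.8% of windows) was found for Hspa1a, Hspa1b, Hspa2, Hspa14 and Hsph1, and the GC box GGGCGG (32.7% of windows) for Hspa1a, Hspa1b, Hspa2, Hspa4l and Hsph1, both on either strand. The Hspa4 window held none of these motifs. A match describes letters only and shows neither a bound site nor a cause. The Hsph1, Hspa2 and Hspa4l windows start from 1 RefSeq transcript, and other annotated transcripts of these genes begin further upstream.

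**Figure D2:**
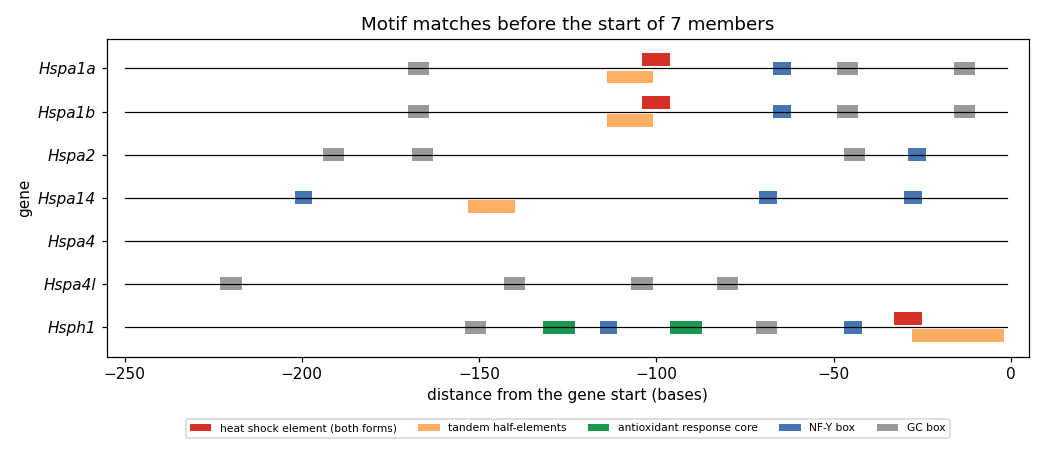
Motif matches in the 250 bases before the start of the 7 members with a RefSeq window; the x axis is the distance from the gene start in bases, each row a gene and each coloured block a match on either strand. The heat shock element core (red) appears for Hspa1a and Hspa1b at the same place and for Hsph1 closer to the start, at -33 to -26.

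Hspa8 (Entrez 15481, chr9:40801276-40805202, plus strand, 9 exons) encodes the constitutive Hsc70, which folds new proteins, strips clathrin from vesicles and targets proteins for chaperone-mediated autophagy. It had the highest FPKM of the family in every library, with 1972, 1953 and 2014 FPKM with 15d-PGJ2-PC, 3158, 3334 and 3441 FPKM with 15d-PGJ2, and 935.5, 909.5 and 923.9 FPKM in control libraries. The groups were far apart and the libraries within each close together. The mean was 1980 ± 31.4 FPKM with 15d-PGJ2-PC, 3311 ± 143 FPKM with 15d-PGJ2 and 923 ± 13.0 FPKM in control libraries, which placed the gene 19th, 11th and 55th of the whole table. The log2 fold change was 1.10 for 15d-PGJ2-PC against control (SE 0.03, adjusted p = 9.39e-09), 1.84 for 15d-PGJ2 against control (SE 0.03, adjusted p = 6.92e-11) and -0.74 for 15d-PGJ2-PC against 15d-PGJ2 (95% interval -0.81 to -0.67, adjusted p = 5.93e-07). Although 2.14-fold and 3.59-fold over control are small beside the changes of the inducible pair, Hspa8 contributed most of the FPKM that the family gained.

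Summed over the 9 members, the family stood at 2398 to 2580 FPKM with 15d-PGJ2-PC, 4564 to 5452 FPKM with 15d-PGJ2 and 999 to 1023 FPKM in control libraries. This was 0.511%, 1.04% and 0.212% of all FPKM on average in these groups. Of the gain of 1455 FPKM with 15d-PGJ2-PC over control, Hspa8 gave 72.6%, the Hspa1a and Hspa1b pair 22.5% and Hsph1 4.07%. Of the gain of 4099 FPKM with 15d-PGJ2 over control, Hspa8 gave 58.3%, the pair 35.5% and Hsph1 5.39%.

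The make-up of the family therefore differed between groups. Hspa8 was 78.1 to 81.4% of the family's FPKM with 15d-PGJ2-PC, 62.7 to 69.2% with 15d-PGJ2 and 90.7 to 91.4% in control libraries. The inducible pair was 12.5 to 15.6% with 15d-PGJ2-PC, 24.6 to 30.6% with 15d-PGJ2 and 0.804 to 0.910% in control libraries. Neither share overlapped between any 2 groups. These shares are descriptions and were not tested.

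**Figure D3:**
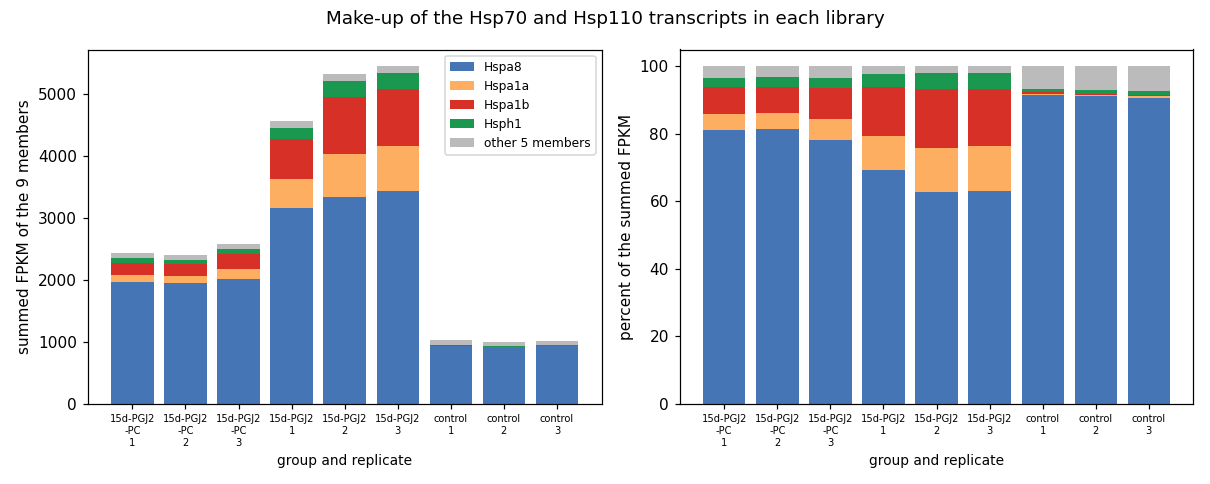
Summed FPKM of the 9 members (left) and each member's percent of that sum (right) in each library, stacked by gene, with libraries along the x axis. Hspa8 (blue) holds 62.7 to 69.2% with 15d-PGJ2 and 90.7 to 91.4% in control libraries, while the orange and red blocks of Hspa1a and Hspa1b are thin in control libraries.

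Among the Hsp110 genes, Hsph1 (Entrez 15505, chr5:149616843-149636498, minus strand) encodes Hsp105, an exchange factor for Hsp70 that is itself induced by heat. It stood at 67.0, 66.9 and 77.4 FPKM with 15d-PGJ2-PC, at 185.3, 251.3 and 260.6 FPKM with 15d-PGJ2, and at 10.4, 11.3 and 12.1 FPKM in control libraries. No library of 1 group reached the range of another. The mean was 70.4 ± 6.06 FPKM with 15d-PGJ2-PC, 232 ± 41.0 FPKM with 15d-PGJ2 and 11.2 ± 0.86 FPKM in control libraries. Hsph1 rose by a log2 fold change of 2.54 with 15d-PGJ2-PC (SE 0.12, adjusted p = 1.57e-07) and of 4.24 with 15d-PGJ2 (SE 0.12, adjusted p = 1.51e-09), ranking 5th against control for either compound, and was lower with 15d-PGJ2-PC than with 15d-PGJ2 by -1.70 (95% interval -1.96 to -1.44, adjusted p = 7.01e-06).

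Hspa4l (Entrez 18415, chr3:40744500-40796103, plus strand) encodes Apg-1, an Hsp110 protein known from the testis and from osmotic stress. Its values were 7.21, 8.53 and 7.80 FPKM with 15d-PGJ2-PC, 20.6, 24.2 and 23.7 FPKM with 15d-PGJ2, and 3.62, 3.25 and 3.56 FPKM in control libraries. The 3 groups were fully separate at these low levels. Hspa4l rose by a log2 fold change of 0.98 with 15d-PGJ2-PC (SE 0.09, adjusted p = 1.43e-05) and of 2.41 with 15d-PGJ2 (SE 0.09, adjusted p = 7.17e-09), and the compounds differed by -1.43 (95% interval -1.62 to -1.24, adjusted p = 3.68e-06). With 15d-PGJ2 it ranked 25th of all tested genes and with 15d-PGJ2-PC 152nd.

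Hspa4 (Entrez 15525, chr11:53259814-53300479, minus strand) encodes Apg-2, the broadly expressed Hsp110 protein, and differed far less. It had 42.7, 41.4 and 43.7 FPKM with 15d-PGJ2-PC, 45.1, 49.7 and 50.1 FPKM with 15d-PGJ2, and 35.3, 37.5 and 40.7 FPKM in control libraries. The groups kept the same order and did not overlap, but the gaps between neighbouring groups were narrow. Against control, Hspa4 was higher with 15d-PGJ2 by 0.35 (SE 0.06, adjusted p = 0.000807), while 15d-PGJ2-PC missed the threshold at 0.17 (95% interval 0.03 to 0.30, adjusted p = 0.0619). The direct difference between the compounds, -0.18 (95% interval -0.31 to -0.04, adjusted p = 0.0672), also missed it. Leaving out each library in turn kept both above the threshold except in 2 cases, in which both passed, with 0.17 (adjusted p = 0.0466) and -0.22 (adjusted p = 0.0334) without replicate 1 of 15d-PGJ2, and 0.22 (adjusted p = 0.0225) and -0.18 (adjusted p = 0.0422) without replicate 3 of control. They also passed after quantile normalization, with 0.20 (adjusted p = 0.0372) and -0.22 (adjusted p = 0.0307), but not on the TPM scale, with 0.16 (adjusted p = 0.117) and -0.15 (adjusted p = 0.143). Over all alternatives the adjusted p ranged from 0.0225 to 0.2005 for 15d-PGJ2-PC against control and from 0.0307 to 0.189 between the compounds.

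Hspa13 (Entrez 110920, chr16:75755190-75767276, minus strand) encodes Stch, a shortened Hsp70 that lacks the peptide-binding part. It had 10.95, 11.6 and 12.7 FPKM with 15d-PGJ2-PC, 13.0, 12.5 and 12.2 FPKM with 15d-PGJ2, and 6.64, 8.5 and 8.65 FPKM in control libraries. Both treated groups lay above control and overlapped each other. Hspa13 rose by 0.52 with 15d-PGJ2-PC (SE 0.10, adjusted p = 0.00217) and by 0.61 with 15d-PGJ2 (SE 0.10, adjusted p = 0.000394). The difference between the compounds was -0.09 with a 95% interval of -0.30 to 0.13 (adjusted p = 0.589), so a difference of that width in either direction was not resolved.

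Hspa14 (Entrez 50497, chr2:3488854-3512814, minus strand) encodes a ribosome-associated Hsp70 that in human cells works with the J-domain protein of Dnajc2 on new chains. It had 15.9, 13.7 and 17.8 FPKM with 15d-PGJ2-PC, 18.5, 18.8 and 14.9 FPKM with 15d-PGJ2, and 19.3, 17.3 and 16.0 FPKM in control libraries. The groups overlapped throughout. The log2 fold change was -0.15 for 15d-PGJ2-PC against control (95% interval -0.39 to 0.10, adjusted p = 0.378), -0.02 for 15d-PGJ2 against control (95% interval -0.26 to 0.23, adjusted p = 0.924) and -0.13 for 15d-PGJ2-PC against 15d-PGJ2 (95% interval -0.38 to 0.12, adjusted p = 0.465). Another annotated gene on the same strand overlaps 8264 bases of the locus, so its reads could have been counted with Hspa14.

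Hspa2 (Entrez 15512, chr12:76403812-76406938, plus strand) encodes the Hsp70 needed for meiosis in male germ cells. It had 4.64, 3.04 and 4.32 FPKM with 15d-PGJ2-PC, 3.19, 3.64 and 4.59 FPKM with 15d-PGJ2, and 3.77, 3.25 and 4.24 FPKM in control libraries. All 3 groups covered the same range. These levels rest on about 54, 52 and 51 reads per library with 15d-PGJ2-PC, with 15d-PGJ2 and in control. The log2 fold change was 0.06 for 15d-PGJ2-PC against control (95% interval -0.28 to 0.40, adjusted p = 0.805), 0.01 for 15d-PGJ2 against control (95% interval -0.33 to 0.35, adjusted p = 0.961) and 0.05 for 15d-PGJ2-PC against 15d-PGJ2 (95% interval -0.29 to 0.39, adjusted p = 0.855). As folds of FPKM + 1, the intervals span 0.825 to 1.32 for 15d-PGJ2-PC against control and 0.796 to 1.28 for 15d-PGJ2 against control. Changes within them are not excluded. Hspa2 shares 79.9% of its aligned coding bases with Hspa1a and 76.1% with Hspa8.

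**Figure D4:**
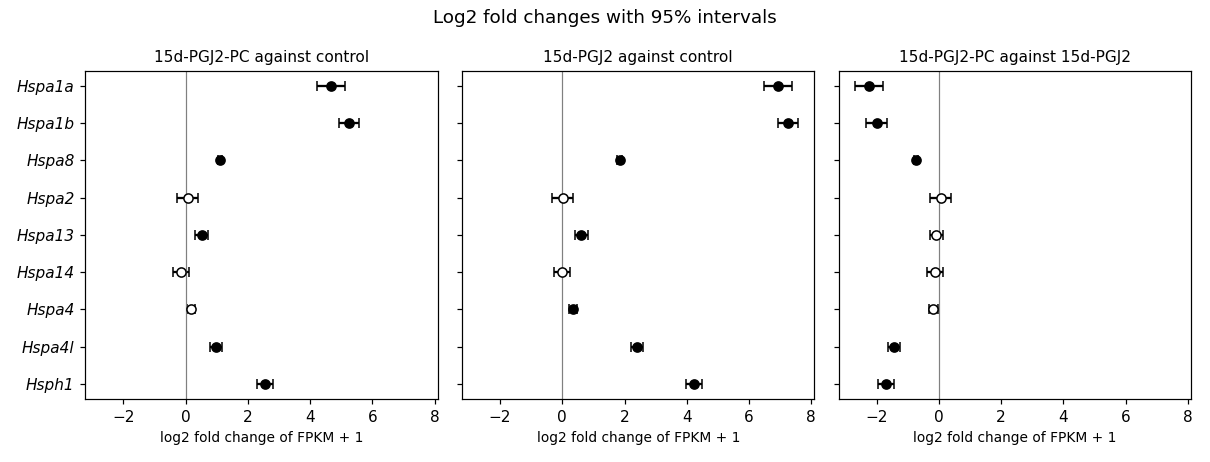
Log2 fold change of FPKM + 1 (x axis) for each member (y axis) in 3 comparisons, with 95% limma intervals as bars; filled points passed an adjusted p of 0.05 and open points did not. Hspa1b reaches 5.25 with 15d-PGJ2-PC and 7.25 with 15d-PGJ2 against control, and 5 members lie to the left of 0 in the direct comparison with filled points.

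In control libraries the order of levels was Hspa8, Hspa4, Hspa14, Hsph1, Hspa13, Hspa1b, Hspa1a, Hspa2 and Hspa4l, and the last 4 overlapped their neighbours. With 15d-PGJ2-PC the order became Hspa8, Hspa1b, Hspa1a, Hsph1, Hspa4, Hspa14, Hspa13, Hspa4l and Hspa2, with no overlap between neighbours. With 15d-PGJ2 it was Hspa8, Hspa1b, Hspa1a, Hsph1, Hspa4, Hspa4l, Hspa14, Hspa13 and Hspa2, where Hspa1b and Hspa1a overlapped. The inducible pair thus stood 6th and 7th of the family in control libraries and 2nd and 3rd after either compound.

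The inducible pair also varied between libraries of the same group. The coefficient of variation with 15d-PGJ2-PC was 21.1% for Hspa1a, 14.5% for Hspa1b and 8.60% for Hsph1, beside medians of 3.27%, 2.82% and 3.89% over genes within 2-fold of their levels. With 15d-PGJ2 it was 22.2% for Hspa1a, 18.9% for Hspa1b and 17.7% for Hsph1, beside medians of 2.33%, 2.21% and 2.98%. In control libraries, at much lower levels, it was 29.0% for Hspa1a, 18.1% for Hspa1b and 7.62% for Hsph1, beside medians of 10.8%, 10.5% and 7.21%. Hspa8 varied by 1.59% with 15d-PGJ2-PC, 4.32% with 15d-PGJ2 and 1.41% in control libraries. Replicate 3 of 15d-PGJ2-PC was the highest of its group for 7 of 9 members, where it was so for 35.8% of all tested genes. Replicate 3 was also the highest for 6 of 9 members with 15d-PGJ2 (31.7% of all tested genes) and for 5 of 9 in control libraries (37.6%). Whether libraries of the same number were handled together is not given by the labels. Replicate 1 of 15d-PGJ2 was the lowest of its group for 7 of 9 members, where it was so for 36.1% of all tested genes. Without replicate 3 of 15d-PGJ2-PC, Hspa1a changed by 4.50 and Hspa1b by 5.14 against control. Without replicate 1 of 15d-PGJ2, Hspa1a changed by 7.12, Hspa1b by 7.42 and Hsph1 by 4.39 against control.

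**Figure D5:**
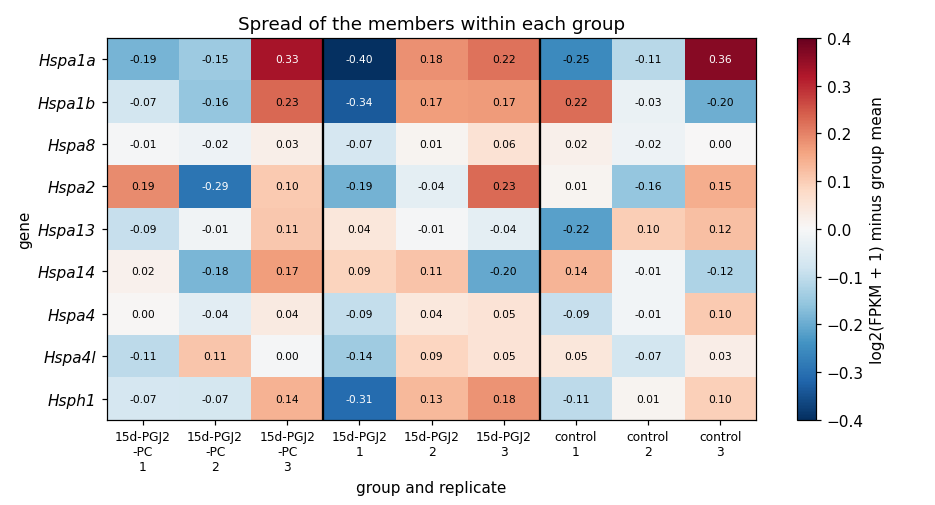
Deviation of log2(FPKM + 1) from the group mean for each member (rows) in each library (columns, grouped by treatment), coloured from low (blue) to high (red) with the value printed in each cell. Replicate 1 of 15d-PGJ2 is low for Hspa1a, Hspa1b and Hsph1, and replicate 3 of 15d-PGJ2-PC is high for the same genes.

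The J-domain co-chaperones, which hand clients to Hsp70, moved in part. Of 18 tested, 9 were higher and 1 lower with 15d-PGJ2-PC, and 11 were higher and 2 lower with 15d-PGJ2, against control (median 0.19 and 0.37). Of all tested genes, 13.8% were higher and 14.1% lower with 15d-PGJ2-PC, and 22.2% higher and 25% lower with 15d-PGJ2. The same shares stand beside the counts of the lists that follow, which are short and were not tested as sets. Dnajb4, a heat-inducible type B protein, had 26.5, 25.6 and 23.0 FPKM with 15d-PGJ2-PC, 39.4, 43.4 and 43.4 FPKM with 15d-PGJ2, and 5.15, 5.34 and 6.21 FPKM in control libraries. Dnaja1, a farnesylated partner of Hspa8, averaged 121.8 ± 6.27 FPKM with 15d-PGJ2-PC, 249.4 ± 27.2 FPKM with 15d-PGJ2 and 52.5 ± 2.73 FPKM in control libraries. Dnajb2, which carries ubiquitin-binding motifs, averaged 18.9 ± 1.51, 35.5 ± 3.16 and 6.21 ± 0.83 FPKM in that order of groups. All 3 were separate between the groups, rising by 1.99, 1.2 and 1.47 with 15d-PGJ2-PC and by 2.72, 2.22 and 2.34 with 15d-PGJ2 for Dnajb4, Dnaja1 and Dnajb2 (adjusted p at most 2.19e-06). Dnajb11 and Dnajb9 went the other way. Dnajb11 averaged 47.5 ± 0.32 FPKM with 15d-PGJ2-PC, 41.1 ± 2.62 FPKM with 15d-PGJ2 and 56.1 ± 3.04 FPKM in control libraries, and fell by 0.23 with 15d-PGJ2-PC (adjusted p = 0.00963) and by 0.44 with 15d-PGJ2 (adjusted p = 7.39e-05). Dnajb9 averaged 29.9 ± 0.71, 22.8 ± 2.10 and 28.6 ± 0.69 FPKM in that order, and passed only for 15d-PGJ2 (fell by 0.32, adjusted p = 0.00214). Dnajb5, Dnajc7, Dnajc13, Dnajc21 and Gak passed in none of the comparisons, with log2 fold changes between -0.16 and 0.15. In the direct comparison 6 of 18 were lower with 15d-PGJ2-PC than with 15d-PGJ2 and 2 were higher, Dnajb9 and Dnajb11.

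Exchange factors outside the family also moved in part. Of 10 tested, 3 were higher and 0 lower with 15d-PGJ2-PC, and 5 were higher and 1 lower with 15d-PGJ2, against control. Bag3, which links Hsp70 to selective autophagy, had 42.4, 37.0 and 40.8 FPKM with 15d-PGJ2-PC, 68.5, 78.5 and 87.2 FPKM with 15d-PGJ2, and 11.4, 16.8 and 15.5 FPKM in control libraries, with log2 fold changes over control of 1.42 for 15d-PGJ2-PC and 2.36 for 15d-PGJ2. Bag2, an inhibitor of the ligase Stub1, averaged 3.43 ± 0.72 FPKM with 15d-PGJ2-PC, 5.55 ± 0.40 FPKM with 15d-PGJ2 and 0.46 ± 0.12 FPKM in control libraries. Grpel1, the exchange factor of the mitochondrial Hsp70, averaged 15.9 ± 0.70, 17.6 ± 1.48 and 11.7 ± 0.50 FPKM in that order. Bag2 reached 1 FPKM only in treated libraries, so the direction of its calls against control was fixed in advance. Bag6 was lower with 15d-PGJ2 (60.7 ± 0.72 against 66.9 ± 2.66 FPKM in control libraries, log2 fold change -0.14, adjusted p = 0.0192). Bag1, Bag4, Bag5 and Sil1 passed in none of the comparisons. Only Bag2 and Bag3 were lower with 15d-PGJ2-PC than with 15d-PGJ2 (-0.57, adjusted p = 0.0119, and -0.94, adjusted p = 0.000452).

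Of 7 tested adaptors and ligases that work with Hsp70, 4 were higher with either compound than in control libraries, none was lower, and 3 (Stub1, Sgta and Tomm34) did not pass. Stip1, which bridges Hsp70 and Hsp90, had 65.1, 68.0 and 67.0 FPKM with 15d-PGJ2-PC, 102.5, 122.8 and 119.6 FPKM with 15d-PGJ2, and 42.6, 39.1 and 44.7 FPKM in control libraries. St13, which stabilises the ADP-bound form of Hsp70, averaged 136.5 ± 3.41 FPKM with 15d-PGJ2-PC, 189.1 ± 5.29 FPKM with 15d-PGJ2 and 93.6 ± 4.57 FPKM in control libraries. Tomm70a, the mitochondrial import receptor that takes clients from the chaperones, averaged 25.4 ± 0.58, 26.7 ± 0.32 and 19.3 ± 0.99 FPKM in that order. Stip1 and St13 were lower with 15d-PGJ2-PC than with 15d-PGJ2 by -0.77 and -0.47 (adjusted p = 3.2e-05 for both).

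Of 3 tested Hsp70 relatives in other compartments, 1 was higher and 1 lower with 15d-PGJ2-PC, and 1 was higher and 2 lower with 15d-PGJ2, against control. Hspa5, which encodes BiP of the endoplasmic reticulum, stood at 349.8, 344.6 and 361.1 FPKM with 15d-PGJ2-PC, at 239.4, 231.2 and 232.6 FPKM with 15d-PGJ2, and at 391.3, 399.4 and 404.9 FPKM in control libraries. It fell by 0.18 with 15d-PGJ2-PC (adjusted p = 0.00122) and by 0.76 with 15d-PGJ2 (adjusted p = 1.24e-08), so its groups ran in the reverse order to Hspa8. Hyou1, the Hsp110-like exchange factor of BiP, averaged 34.9 ± 0.67 FPKM with 15d-PGJ2-PC, 22.8 ± 0.71 FPKM with 15d-PGJ2 and 37.0 ± 1.63 FPKM in control libraries, and fell by 0.67 with 15d-PGJ2 (adjusted p = 9.96e-07), with -0.08 for 15d-PGJ2-PC (adjusted p = 0.246). Hspa9, the mitochondrial Hsp70, averaged 180.6 ± 2.90 FPKM with 15d-PGJ2-PC, 190.9 ± 5.5 FPKM with 15d-PGJ2 and 142.3 ± 5.62 FPKM in control libraries, and rose by 0.34 and 0.42 over control. Hspa12a and Hspa12b averaged at most 0.31 FPKM in any group and were not tested. Hspa1l, an Hsp70 gene beside Hspa1a that is known from the testis and stood among the male germ cell markers, had 0.92, 0.51 and 0.77 FPKM with 15d-PGJ2-PC, 2.11, 2.11 and 3.07 FPKM with 15d-PGJ2, and 0.18, 0.32 and 0.18 FPKM in control libraries.

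Of 4 tested genes for heat shock factors and their regulator, 2 were higher and 0 lower with either compound than in control libraries. Hsf1 averaged 15.1 ± 0.97 FPKM with 15d-PGJ2-PC, 17.5 ± 0.49 FPKM with 15d-PGJ2 and 11.8 ± 0.36 FPKM in control libraries, with log2 fold changes of 0.33 (adjusted p = 0.00255) and 0.53 (adjusted p = 4.25e-05) over control and of -0.20 between the compounds (adjusted p = 0.0436). Hsf2 averaged 10.7 ± 0.82, 13.3 ± 1.30 and 4.94 ± 0.76 FPKM in that order, with log2 fold changes of 0.98 and 1.27 over control. Hsf4 and the Hsf1-binding protein gene Hsbp1 passed in none of the comparisons.

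The genes whose pattern over the 9 libraries was most like that of 3 members were ranked by Pearson's r of log2(FPKM + 1). For Hspa1b these were Zfand2a (r = 0.9985), Sqstm1 (0.9982), Gabarapl1 (0.9980) and Mafg (0.9979). For Hspa8 they were Aox1 (0.9981), Gstm1 (0.9976), Gclc (0.9976) and Arih1 (0.9974), and for Hsph1 they were Gclc (0.9984), Cacybp (0.9979), Dnaja1 (0.9972) and Chordc1 (0.9968). The 9 points fall into 3 treatment groups, so r mostly reflects the order and spacing of group means, and 101, 85 and 69 genes exceeded 0.99 for Hspa1b, Hspa8 and Hsph1. Zfand2a averaged 76.1 ± 0.75 FPKM with 15d-PGJ2-PC, 111.2 ± 9.98 FPKM with 15d-PGJ2 and 28.2 ± 0.52 FPKM in control libraries, log2 fold changes of 1.40 and 1.94 beside 5.25 and 7.25 for Hspa1b, so a like pattern did not mean a like size.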

How the data were processed

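RNA of 9 libraries in 3 groups was extracted with Trizol and made into libraries with Illumina's TruSeq RNA kit, per the labels' protocols. The authors deposited 1 table of FPKM values for 18049 genes, per the file headers. The aligner BWA and the build mm10 are named in the submitters' processing notes. BWA's version, the counting tool and its use of strand were not given in the sources used here. A spreadsheet had changed 23 symbols to dates, and these were put back from the Entrez number. The deposited FPKM were used without further scaling.

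The 11309 genes reaching 1 FPKM in 3 or more libraries were tested on log2(FPKM + 1) with limma 3.58.1 (R 4.3.3), with an intensity trend, 2-sided, all 9 libraries in 1 fit, no covariate, and Benjamini-Hochberg adjustment per comparison at 0.05. The code was tested on simulated data. A count model was not applied, as FPKM are not counts. Depth was estimated from the size of 1-read steps in low values (about 70% of those values were whole within 0.1 reads) with GENCODE transcript lengths, so read numbers are approximate. An exact permutation test of 3 against 3 libraries cannot go below p = 0.1 and was not used. Promoter windows came from RefSeq (GRCm38.p6), coding sequences from GENCODE transcripts on GRCm38.

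The members, lists and markers were chosen with earlier results of these data known. Besides the members, the text names, per list, up to 3 genes with the smallest p for 15d-PGJ2 against control and those not called there or called against the list's majority, and for 3 members the 4 genes most like them; any other gene, such as Hspa1l or a marker, was named after its values were seen. Alternatives were another pseudocount, other filters on low values, quantile or TPM scaling, no trend, only the libraries compared, the Hspa1 copies summed, a replicate block, each library left out, and other cell types' markers left out.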

Additional observations from a re-analysis of the deposited data

How the results depend on the processing

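The number of members called stayed within 1 of 6 (15d-PGJ2-PC against control), 7 (15d-PGJ2 against control) and 5 (between the compounds) under every alternative run. In that order it was 5, 6 and 4 with the Hspa1 copies summed and reached 7, 7 and 6 where Hspa4 passed, which was with quantile normalization, with the replicate block, and without replicate 1 of 15d-PGJ2 or replicate 3 of control. Leaving out each library gave 6 to 7, 7 in all cases, and 5 to 6. Over all tested genes, called numbers were 3147, 5338 and 2335, and 2530 to 3152, 4717 to 5293 and 1787 to 2375 with 1 library left out. Hspa1a, Hspa1b, Hspa8, Hspa13, Hspa4l and Hsph1 kept direction and side of the threshold in every comparison and alternative that gave them a value.

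Log2 fold changes changed sign only for Hspa2 and Hspa14, which passed in none of the comparisons. For 15d-PGJ2 against control, Hspa2 was -0.025 on the TPM scale, -0.10 without replicate 3 of 15d-PGJ2 and -0.067 without replicate 2 of control (leave-one-out range -0.10 to 0.10), and Hspa14 was 0.087 without replicate 3 of 15d-PGJ2 and 0.053 without replicate 1 of control (range -0.077 to 0.087). For 15d-PGJ2-PC against control, Hspa2 was -0.031 without replicate 1 of 15d-PGJ2-PC and -0.015 without replicate 2 of control (range -0.031 to 0.21). For 15d-PGJ2-PC against 15d-PGJ2, Hspa2 was -0.042 without replicate 1 of 15d-PGJ2-PC and -0.041 without replicate 1 of 15d-PGJ2 (range -0.042 to 0.20). The cause was not tested. A filter of 5 FPKM left Hspa2 out, and the summed copies gave no separate value for Hspa1a and Hspa1b.

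The groups share replicate numbers. Over all tested genes, deviations from the group mean correlated weakly between same-numbered libraries (-0.043 to 0.052) and between other pairs (-0.07 to 0.098). For pairs with a control library the correlations were 0.014 to 0.052 at the same number and -0.057 to 0.037 otherwise. Among the members, only Hspa1a and Hsph1 had replicate 1 below and replicate 3 above the group mean in every group. For Hspa1a the deviations in replicate 1 were -0.19 with 15d-PGJ2-PC, -0.40 with 15d-PGJ2 and -0.25 in control. In replicate 3 they were 0.33, 0.22 and 0.36 in that order. The labels do not say whether the numbers pair libraries, and these values cannot decide it. With the number as a replicate block, 7, 7 and 6 members and 3041, 5272 and 2215 of all tested genes were called, Hspa4 being the added member (0.17, adjusted p = 0.0388, for 15d-PGJ2-PC against control and -0.18, adjusted p = 0.0428, for 15d-PGJ2-PC against 15d-PGJ2). Hspa2 rests on about 50 reads a library, the fewest of the 9 members in each group, and changes inside its intervals are not excluded.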
